A study of Mus musculus with 8 samples.

Results

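The genes studied here are 6 through which kidney cells act on blood clotting and platelets: F3, F8, Vwf, Thbd, Tfpi and Tbxa2r. They were taken by symbol from the gene lines that held a count in every library, and all 6 were among the 17326 such genes. RNA sequencing counts came from endothelium and podocytes sorted from the kidneys of EMCN+/+ (wild-type) and EMCN-/- (knockout) mice, with 2 libraries in each of the 4 groups, named replicates 2 and 3. EMCN is endomucin, a sialomucin of the endothelial surface, and the study asked what its loss does to the glomerulus, the filter of the kidney. The strain, age and sex of the mice, the kind of knockout allele, the surface markers used for sorting and any pooling of animals are not given in the sources used here. P-values therefore measure the spread between these libraries, which may be technical.

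Clotting starts when tissue factor, the product of F3, meets factor VII in plasma, and it is amplified on platelet surfaces with factor VIII (F8) as a cofactor. Von Willebrand factor (Vwf) carries factor VIII in plasma and tethers platelets to damaged vessels. Endothelium holds clotting back through thrombomodulin (Thbd), which turns thrombin into an activator of protein C, and through tissue factor pathway inhibitor (Tfpi). Thromboxane released by platelets acts through the receptor encoded by Tbxa2r, which is known for contraction of vessels and mesangial cells and for platelet aggregation. In the glomerulus tissue factor is known mainly from the epithelial side of the filter.

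Between 10478956 and 17386042 counts per library lay on the lines used. Emcn, the targeted gene, was lower in knockout in both cell types, by log2 fold changes of −3.43 (edgeR adjusted p = 0.0205) and −3.38 (edgeR adjusted p = 0.0321), in the direction of the labels. Of 10 endothelial markers 9 were higher in endothelium than in podocytes in each genotype at an edgeR adjusted p under 0.05. The exception was Cldn5, which was higher in podocyte libraries in wild type. All 6 podocyte markers on the lines used were higher in podocytes, while 4 others of that list were not analysed here. Replicate 3 of wild-type endothelium stood apart from the other endothelial libraries. Its 6 tubule markers summed to 13268 CPM (the usual depth-scaled count, on library sizes adjusted by the TMM method) against 2777 to 5040.2 CPM in the other endothelial libraries, and mitochondrial genes took 26.2% of its counts against 10.1% to 19.55% there. In podocyte libraries the tubule markers summed to 3637 and 8855 CPM in wild type and 5788 and 7459 CPM in knockout. Mitochondrial genes took 12.2% and 16.9% of the counts in wild-type podocytes and 12.9% and 22.2% in knockout podocytes. In sorted bulk samples such as these, fewer cells of a type and less RNA per cell cannot be told apart.

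The 6 genes separated the cell types more than the genotypes. In wild type 4 genes (F8, Thbd, Vwf and Tbxa2r) were higher in endothelium and 1 (F3) was higher in podocytes at an edgeR adjusted p under 0.05, so that 5 of 6 passed where 8.99% of the 16477 genes tested did (4.26% higher, 4.73% lower). In knockout the same 5 genes passed in the same directions, where 10.4% of all genes did (4.28% higher, 6.09% lower). That split depends on the scaling, since 705 genes were higher and 1004 lower with TMM factors and 738 higher and 480 lower with library size only, and the 5 genes passed under both. Tfpi passed in neither genotype. For knockout against wild type, 0 of 6 passed in endothelium and 0 of 6 in podocytes, where 0.00607% of all genes passed in each, 1 gene that in both cases was Emcn. The median log2 difference of the 6 genes between endothelium and podocytes was 1.48 in wild type and 2.05 in knockout, beside −0.01 over all genes in each. Between genotypes it was 0.03 in endothelium and −0.10 in podocytes, beside 0.01 and 0.02 over all genes. DESeq2 also called 0 of 6 between genotypes in either cell type. At an unadjusted edgeR p under 0.05 there were 2 of 6 genes in endothelium (F3 and Tbxa2r), where 5.49% of all genes lay, and 1 of 6 in podocytes (Vwf), where 4.43% did. Knockout and wild-type libraries did not overlap for 3 of 6 genes in endothelium (F3 lower, Vwf and Tbxa2r higher), as for 44.5% of all genes (24.8% higher, 19.7% lower). In podocytes they did not overlap for 2 of 6 (Vwf higher, Tbxa2r lower), as for 31.2% of all genes (15.1% higher, 16.0% lower).

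**Figure D1:**
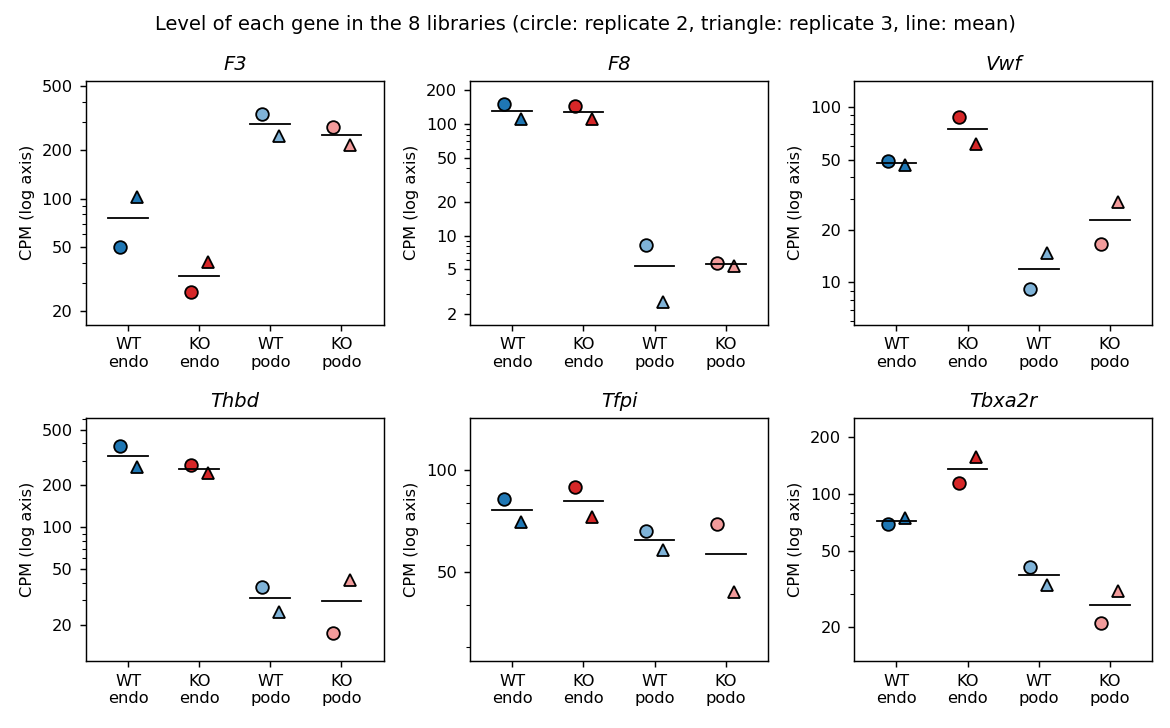
Each panel plots 1 gene in the 8 libraries as CPM on a log axis, with circles for replicate 2, triangles for replicate 3 and a line at the group mean (n = 2). F8 and Thbd fall steeply from endothelium to podocytes, F3 lies higher in podocytes, Tfpi differs little, and Tbxa2r and Vwf form 4 groups that do not overlap.

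F3, the gene of tissue factor (Entrez 14066, chromosome 3, 121723537 to 121735052 on the plus strand of GRCm38.p6, 6 exons), was the member with the higher level in podocytes. Its counts scaled to 336 and 245 CPM in wild-type podocytes and 279 and 214 CPM in knockout podocytes (replicates 2 and 3). Endothelium held 50.4 and 102 CPM in wild type and 26.4 and 40.2 CPM in knockout. Every podocyte library lay above every endothelial library. In wild type the log2 fold change, endothelium minus podocytes, was −1.93 (SE 0.36, edgeR adjusted p = 0.00583), and without replicate 2 of wild-type podocytes the adjusted p was 0.0645. Without replicate 3 of wild-type endothelium the difference was −2.53. In knockout the difference was −2.89 (SE 0.37, edgeR adjusted p = 0.000734). Per kilobase of its longest coding transcript (1872 bases in GENCODE M21), F3 had the highest level of the 6 genes in podocytes, at 155 ± 34.1 CPM per kilobase in wild type and 132 ± 24.6 in knockout (SD, n = 2).

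Within endothelium both knockout libraries held less F3 than both wild-type libraries. The log2 fold change was −1.19 (95% interval −1.98 to −0.41), with an edgeR adjusted p of 0.716, which does not pass. It moved to −0.61 without replicate 3 of wild-type endothelium and to −1.62 without replicate 2, so 1 library sets much of its size. In podocytes the F3 libraries of the genotypes overlapped, with a log2 fold change of −0.24 (95% interval −1.0 to 0.53). The difference between these genotype effects was −0.96 (95% interval −2.05 to 0.14, edgeR adjusted p = 1.0). With 1 library left out it ran from −1.38 to −0.37, the latter without replicate 3 of wild-type endothelium. Other transcripts lay along the same axis. The 19 readable genes of a list of immediate-early and heat shock genes, known to respond to tissue dissociation, summed to 43639 and 50431 CPM in wild-type and 27309 and 35200.3 CPM in knockout endothelium. All 19 had a log2 fold change below 0 there, with a median of −0.64 beside 0.01 over all genes. Of the 19, 7 had an unadjusted edgeR p under 0.05, where 5.49% of all genes did. In podocytes the list summed to 47233 and 39169 CPM in wild type and 38581 and 33011 CPM in knockout. The median there was −0.13, with 7 of 19 above 0 and 0 at an unadjusted edgeR p under 0.05. For endothelium minus podocytes the list had a median of −0.25 in wild type and −0.98 in knockout, with 7 and 5 of 19 above 0. In wild type edgeR called 1 gene higher and 1 lower, where 4.26% and 4.73% of all genes were. In knockout it called 1 higher and 8 lower, where 4.28% and 6.09% were. The tubule sum and the mitochondrial share given above were also highest in the endothelial library with most F3. Podocyte markers, in cells where F3 is higher, summed over 6 genes to 1697 and 1043 CPM in wild-type and 1172 and 1293 CPM in knockout endothelium, so the sums overlapped, and 0 of 6 had a log2 fold change above 0, with a median of −0.38. The part of these transcripts in the F3 differences, between genotypes or between cell types, was not tested.

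The 250 bases upstream of the F3 start are shown because the AP-1 factors Fos and Jun, which belong to the same immediate-early list, recognise the letters TGANTCA. The matching stretch of Tbxa2r, the gene of the 6 with the largest difference between the genotype effects, is shown for comparison. Both are from RefSeq on GRCm38.p6, 5′ to 3′ on the plus strand, with matches to TGANTCA in capitals.
F3 upstream, chr3:121723287-121723536: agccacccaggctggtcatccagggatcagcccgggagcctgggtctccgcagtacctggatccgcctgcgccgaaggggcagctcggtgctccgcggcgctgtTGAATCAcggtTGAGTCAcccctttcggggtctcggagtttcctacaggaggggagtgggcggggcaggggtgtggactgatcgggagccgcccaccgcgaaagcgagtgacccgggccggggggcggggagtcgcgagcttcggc
Tbxa2r upstream, chr10:81328018-81328267: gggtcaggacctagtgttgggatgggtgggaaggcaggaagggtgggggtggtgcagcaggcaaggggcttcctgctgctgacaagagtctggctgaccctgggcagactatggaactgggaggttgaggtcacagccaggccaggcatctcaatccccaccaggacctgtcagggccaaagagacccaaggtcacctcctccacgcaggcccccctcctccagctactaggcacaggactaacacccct
The F3 window held TGAATCA with its first base at −146 and TGAGTCA at −135, counted back from −1 at the base before the start. Such a match was present in 6.75% of the 32851 windows of this length upstream of mouse gene starts. The Tbxa2r window held none. RefSeq windows were matched for 4 of the 6 genes (F3, F8, Tfpi and Tbxa2r, 6 windows in all), and of those 6 windows the F3 window alone had the AP-1 letters. All motifs were searched on both strands, and the KLF motif was taken as CCACCC and the GC box as GGGCGG. The F3 window had 3 GC box matches, a motif in 32.7% of all windows, and 1 KLF match. The Tbxa2r window had 3 KLF matches, all on the opposite strand, a motif in 28.1% of all windows. A match describes letters and does not show that a factor binds there.

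F8, the gene of coagulation factor VIII (Entrez 14069, chromosome X, 75170344 to 75382738 on the minus strand, 26 exons), showed the largest cell type difference of the 6. Wild-type endothelium held 152 and 111 CPM and knockout endothelium 145 and 111 CPM. Podocytes held 8.17 and 2.54 CPM in wild type (126 and 35 counts) and 5.65 and 5.38 CPM in knockout. Each endothelial library thus lay far above each podocyte library, while the genotypes overlapped within each cell type. F8 was higher in endothelium by a log2 fold change of 4.61 in wild type (SE 0.47, edgeR adjusted p = 0.000163) and 4.53 in knockout (SE 0.47, edgeR adjusted p = 0.000183), or 24.3-fold and 23.2-fold. The wild-type value was 5.70 without replicate 2 of wild-type podocytes and 4.0 without replicate 3, and it passed in both fits. Between genotypes the log2 fold change was −0.04 in endothelium (95% interval −0.91 to 0.84), which turned to 0.28 with scaling by library size only, and 0.04 in podocytes (95% interval −0.93 to 1.0). RefSeq places Gm6039, Gm8522 and Fundc2 partly over F8. How the counting treated strand is not given in the sources used here, so F8 counts are uncertain to that extent, while the other 5 genes overlap no gene in RefSeq.

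Vwf, which encodes the carrier of factor VIII (Entrez 22371, chromosome 6, 125552948 to 125686679 on the plus strand, 52 exons), was also an endothelial transcript, at a lower level. Its libraries stood at 49.3 and 46.8 CPM in wild-type and 87.4 and 61.6 CPM in knockout endothelium. Podocyte libraries held 9.20 and 14.7 CPM in wild type and 16.6 and 28.5 CPM in knockout. The 4 groups therefore ran without overlap from knockout endothelium through wild-type endothelium and knockout podocytes to wild-type podocytes. Vwf and Tbxa2r were the 2 of 6 genes with 4 groups free of overlap in some order, a pattern of 3.79% of all genes tested. Vwf was higher in endothelium by 2.01 log2 units in wild type (SE 0.34, edgeR adjusted p = 0.00340) and by 1.72 in knockout (SE 0.33, edgeR adjusted p = 0.00766). The knockout difference was 1.45 without replicate 2 of knockout endothelium and 1.38 without replicate 2 of knockout podocytes. The call was lost in both of these smaller fits. Per kilobase (8834 bases) Vwf had the lowest level of the 6 genes in endothelium, at 5.44 ± 0.205 CPM per kilobase in wild type and 8.43 ± 2.06 in knockout (SD, n = 2).

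Vwf was the member whose knockout libraries lay above the wild-type ones in both cell types, as did 5.74% of all genes. The log2 fold change was 0.63 in endothelium (95% interval −0.09 to 1.35, edgeR adjusted p = 0.716) and 0.92 in podocytes (95% interval 0.18 to 1.66, edgeR adjusted p = 0.978), and neither passed. Leaving out 1 library gave values from 0.35 (without replicate 2 of knockout endothelium) to 0.85 in endothelium. In podocytes they ran from 0.48 (without replicate 3 of knockout) to 1.29. The effects of the cell types differed by −0.29 (95% interval −1.31 to 0.74). Platelets and arteries also carry Vwf. The 7 readable platelet and megakaryocyte markers summed to 11.7 and 11.6 CPM in wild-type and 31.0 and 13.8 CPM in knockout endothelium, with the highest sum in the library with most Vwf. All 6 platelet markers tested had a log2 fold change above 0 there, with a median of 0.87 and 0 at an unadjusted edgeR p under 0.05. In podocyte libraries the platelet markers summed to 10.3 and 11.2 CPM in wild type and 9.81 and 7.74 CPM in knockout, with the lowest sum in the podocyte library with most Vwf. There 2 of 6 had a log2 fold change above 0, with a median of −0.27. Among those podocyte libraries Gp9 was at 0 counts in all 4 and Ppbp at 0 in 2. The 5 readable arterial markers summed to 715 and 476 CPM in wild-type and 876 and 296 CPM in knockout endothelium, so they overlapped between genotypes, and 4 of 5 had a log2 fold change above 0 there, with a median of 0.42. In podocytes 3 of 5 did, with a median of 0.36. The 5 readable venous and peritubular markers summed to 998 and 577 CPM in wild-type and 1456 and 339 CPM in knockout endothelium, which also overlapped. Of these, 3 of 5 had a log2 fold change above 0 in endothelium, with a median of 0.43. In podocytes 2 of 5 were above 0, with a median of −0.06. The part of other cells in the Vwf values was not tested.

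Thbd, whose product binds thrombin on the endothelial surface (Entrez 21824, chromosome 2, 148404471 to 148408188 on the minus strand, 1 exon), had the highest CPM of the 6 genes in endothelium. Wild-type libraries held 382 and 271 CPM and knockout libraries 280 and 246 CPM. In podocytes the values were 37.3 and 24.8 CPM in wild type and 17.5 and 42.0 CPM in knockout. The genotypes overlapped in both cell types. Per kilobase (3723 bases) Thbd reached 87.7 ± 21.0 CPM per kilobase in wild-type endothelium (SD, n = 2), above the other 5 genes there. It was higher in endothelium by 3.40 log2 units in wild type (SE 0.41, edgeR adjusted p = 0.000417) and by 3.15 in knockout (SE 0.41, edgeR adjusted p = 0.000732). The knockout value was 2.64 without replicate 2 of knockout podocytes and 3.90 without replicate 3, and it passed in each fit with 1 library left out. The genotype difference was −0.31 in endothelium (95% interval −1.14 to 0.51) and −0.06 in podocytes (95% interval −0.91 to 0.78), where it turned to 0.05 with scaling by library size only.

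Tfpi, an inhibitor of the complex of tissue factor and factor VII (Entrez 21788, chromosome 2, starting at 84432855 and ending at 84476775 on the minus strand, 8 exons in its longest transcript), was close to even across the groups. Endothelium held 82.1 and 70.3 CPM in wild type and 89.0 and 72.7 CPM in knockout. Podocytes held 66.2 and 58.2 CPM in wild type and 69.2 and 43.7 CPM in knockout. Endothelial libraries lay above the podocyte libraries of the same genotype, but by a margin that did not pass. The log2 difference between cell types was 0.29 in wild type (95% interval −0.28 to 0.87, edgeR adjusted p = 0.636) and 0.52 in knockout (95% interval −0.06 to 1.10, edgeR adjusted p = 0.275). All 6 genes had endothelial and podocyte libraries that did not overlap, as did 46.9% of all genes in wild type and 55.0% in knockout. Between genotypes Tfpi differed by 0.09 in endothelium (95% interval −0.49 to 0.66) and −0.14 in podocytes (95% interval −0.72 to 0.44).

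Tbxa2r, the thromboxane receptor gene (Entrez 21390, chromosome 10, 81328268 to 81335174 on the plus strand, 4 exons), was the member whose knockout and wild-type libraries were apart in opposite directions in the cell types. Its endothelial libraries held 70.1 and 74.6 CPM in wild type and 114 and 157 CPM in knockout. In podocytes it stood at 41.5 and 33.4 CPM in wild type and 21.2 and 30.9 CPM in knockout. Knockout libraries were thus all above wild type in endothelium and all below it in podocytes, a pattern of non-overlap in opposite directions that 3.0% of all genes had. The log2 fold change was 0.91 in endothelium (95% interval 0.33 to 1.49, edgeR adjusted p = 0.716) and −0.52 in podocytes (95% interval −1.11 to 0.06, edgeR adjusted p = 0.978), and neither passed. Their difference was 1.43 (95% interval 0.61 to 2.26), with an unadjusted edgeR p of 0.00293 and an adjusted p of 1.0. In this test of the difference 2.6% of all genes had an unadjusted p under 0.05, 0.0% passed the threshold, and Tbxa2r ranked 7 by p. The gene is described here with that rank already known. Over the 14 alternatives with a value the difference stayed between 1.18 and 1.72. With 1 library left out the genotype effect ran from 0.65 to 1.11 in endothelium and from −0.82 to −0.28 in podocytes.

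The cell type difference of Tbxa2r was 0.95 log2 units in wild type (SE 0.26, edgeR adjusted p = 0.0499), which is at the threshold and passed under 5 of 12 alternatives, with adjusted p from 0.00991 to 0.265. It was lost when any 1 of the 4 wild-type libraries was left out. In knockout it was 2.38 (SE 0.27, edgeR adjusted p = 0.000358), and it passed under all 11 alternatives. The wild-type and knockout contrasts share no library, and the test of the gap between them is the difference of 1.43 given above. Per kilobase (1919 bases) Tbxa2r reached 70.8 ± 15.9 CPM per kilobase in knockout endothelium, level with Thbd at 70.6 ± 6.44 (SD, n = 2). Mesangial and smooth muscle cells and platelets also carry this receptor. The 7 readable mesangial and mural markers summed to 665 and 434 CPM in wild-type and 524 and 309 CPM in knockout endothelium. In podocyte libraries they summed to 960.5 and 923 CPM in wild type and 1252 and 482 CPM in knockout. This sum overlapped between genotypes in both cell types. By gene, 4 of 7 had a log2 fold change above 0 in endothelium, with a median of 0.21, and 4 of 7 in podocytes, with a median of 0.12. At an unadjusted edgeR p under 0.05 there were 2 of 7 in endothelium and 1 of 7 in podocytes. Over all genes those shares were 5.49% and 4.43%. The platelet sum given above was higher in both knockout endothelial libraries than in wild type and highest in replicate 2, at 31.0 CPM against 13.8 in replicate 3, while Tbxa2r was highest in replicate 3. In podocytes the platelet sum was lower in both knockout libraries, at 9.81 and 7.74 CPM against 10.3 and 11.2 CPM in wild type. The difference between the genotype effects was above 0 for 5 of 6 platelet markers tested, with a median of 0.97 and 0 at an unadjusted edgeR p under 0.05. The part of other cells in the Tbxa2r values was not tested.

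**Figure D2:**
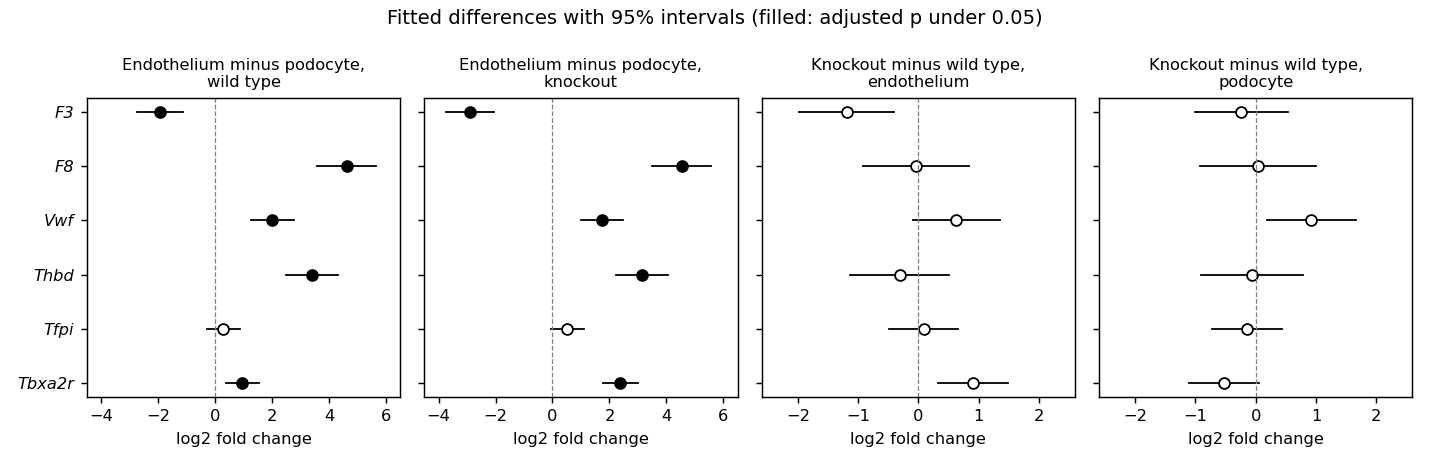
The 4 panels plot the fitted log2 fold change of each gene with its 95% interval, for endothelium minus podocytes in each genotype and for knockout minus wild type in each cell type, with filled points where the edgeR adjusted p is under 0.05. In the cell type panels 5 of 6 points are filled, and in the genotype panels every point is open, with F3 and Tbxa2r in endothelium and Vwf in podocytes having intervals that leave out 0.

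How much of each transcript the podocyte libraries held, as a share of the endothelial level of the same genotype, was set beside the endothelial markers, because sorted podocytes can carry RNA of endothelium. Apart from Cldn5, at 294% in wild type, 9 markers ranged from 2.96% to 12.7% in wild type and from 2.73% to 9.15% in knockout. F8 lay inside that range, at 4.08% in wild type and 4.31% in knockout, near Pecam1 at 4.27% and 4.33%. Taken singly, the wild-type podocyte libraries gave 6.22% (replicate 2) and 1.93% (replicate 3, below the range) for F8. Thbd was inside it in wild type at 9.50% and above it in knockout at 11.3%, where the podocyte libraries taken singly gave 6.66% (replicate 2, inside the range) and 16.0% (replicate 3, above it). Vwf lay above it at 24.8% and 30.3%, Tbxa2r at 51.8% and 19.2%, and Tfpi at 81.7% and 69.8%. F3 reached 382% and 741%. The podocyte share of F8 was above that of 2 of 10 markers in wild type and 3 of 10 in knockout, and the levels of Vwf, Tbxa2r and Tfpi were a larger share than 9 of 10 markers in both genotypes. Whether podocytes themselves held these transcripts was not tested.

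**Figure D3:**
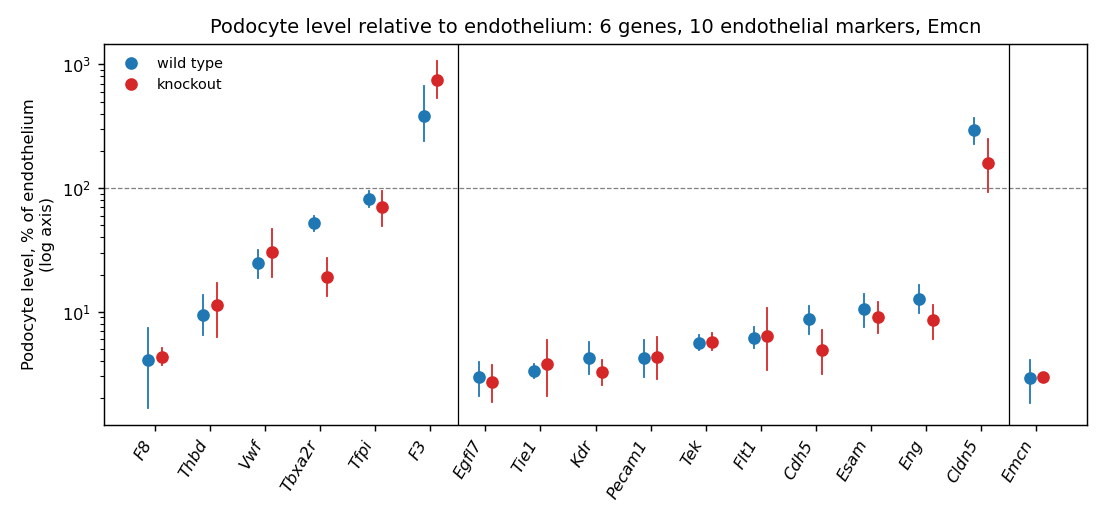
Points give the mean podocyte level as a percentage of the mean endothelial level on a log axis, for the 6 genes, 10 endothelial markers and Emcn, in wild type and knockout. Lines run from the lowest to the highest ratio of single libraries, and F8 sits among the markers while Tfpi lies near the dashed line at 100%.

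The rest of the clotting and platelet machinery was read from lists fixed by role, of which many genes lay on incomplete lines and were not analysed here, Plat, Procr, Nos3 and Selp among them. Across the 13 readable genes of the coagulation cascade, 0 were higher and 1 was lower in endothelium than in podocytes in wild type, where 4.73% of all genes were called lower and 8.99% in either direction. That gene was Ggcx, the enzyme that carboxylates vitamin K-dependent factors (65.7 against 133 CPM, log2 fold change −1.02, edgeR adjusted p = 0.0121), which overlaps Mat2a. In knockout, where 10.4% of all genes were called, 1 was lower again, Fga, the fibrinogen alpha chain, at 0.53 against 4.61 CPM (edgeR adjusted p = 0.0331). Its podocyte libraries held 7.08 and 2.14 CPM, and the call was lost in 3 of 4 fits with 1 library left out. Of 5 readable anticoagulant genes 0 passed in wild type and 1 was lower in endothelium in knockout. It was Proc, the gene of protein C, at 1.67 against 16.9 CPM (edgeR adjusted p = 0.0200). Its podocyte libraries held 26.0 and 7.82 CPM, and this call too was lost in 3 of 4 such fits. In wild type 2 anticoagulant genes had an unadjusted edgeR p under 0.05, where 19.6% of all genes did (22.9% in knockout). DESeq2 called 2 of them in wild type, where it called 1819 of the 16477 genes tested. None of 4 readable fibrinolysis genes passed in edgeR in either genotype, 0 had an unadjusted p under 0.05, and DESeq2 also called 0.

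All 3 readable genes of the list for endothelial control of platelets were higher in endothelium in both genotypes, where 4.26% and 4.28% of all genes were. Pecam1 is also 1 of the 10 endothelial markers used above. The genes were the adhesion molecule Pecam1, the ATP- and ADP-degrading enzyme Entpd1 and the endothelin gene Edn1, with wild-type log2 fold changes of 4.55, 3.10 and 3.31 (edgeR adjusted p = 5.8e-05, 0.000211 and 0.000126). Entpd1 overlaps 3 predicted genes. Among the 4 protease-activated receptors, through which thrombin and related proteases act on cells, F2rl3 was higher in endothelium by 4.44 in wild type (edgeR adjusted p = 0.000120) and by 3.82 in knockout (edgeR adjusted p = 0.000217). F2rl1 was lower in endothelium in knockout by −1.91 log2 units (edgeR adjusted p = 0.00999), and in wild type its difference of −1.35 did not pass in edgeR (adjusted p = 0.0530), while DESeq2 called it.

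The prostanoid list, which holds the enzymes and receptors around thromboxane, had members on both sides. Of 14 tested genes 2 were higher and 1 lower in endothelium in wild type, and 1 was higher and 4 lower in knockout, beside the 8.99% and 10.4% of all genes called. The cyclooxygenase gene Ptgs2 was higher in endothelium in both genotypes, by 1.75 in wild type (edgeR adjusted p = 0.0101) and 1.35 in knockout (edgeR adjusted p = 0.0370). Ptgs1, the other cyclooxygenase gene, was higher in wild type by 1.13 (edgeR adjusted p = 0.0258). Prostacyclin synthase, Ptgis, was lower in endothelium in both, at 16.1 against 43.1 CPM in wild type (edgeR adjusted p = 0.0182) and 15.5 against 45.7 CPM in knockout (edgeR adjusted p = 0.0113). It overlaps a predicted gene, Gm52569. The genes lower in knockout endothelium than in knockout podocytes further included Ptgds, Ptger4 and Ptges2, by −2.97, −1.43 and −1.40 log2 units (edgeR adjusted p = 0.00874, 0.0131 and 0.0315). In wild type Ptgds differed by −1.82 (edgeR adjusted p = 0.0776) and Ptger4 by −1.08 (edgeR adjusted p = 0.0523), which did not pass. DESeq2 called both there. Of the list it called 2 genes higher and 3 lower in wild type, and 2 higher (Ptgs1 besides Ptgs2) and 4 lower in knockout. Over the 16477 genes tested it called 1819 in wild type and 2263 in knockout. Of the 20 calls given here for list genes between cell types, 8 passed in every fit with 1 library left out, those of Pecam1, Entpd1, Edn1 and F2rl3 in both genotypes. The other 12 were lost in at least 1 such fit, every prostanoid call included. Between genotypes 0 genes of these 6 lists passed in either cell type, with an unadjusted edgeR p under 0.05 for 1 prostanoid gene in endothelium and 1 anticoagulant gene in podocytes. DESeq2 also called 0 genes of these lists between genotypes.

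Genes with the pattern most like each member were taken by Pearson correlation of log2 CPM over the 8 libraries, among 9952 other genes with a mean of at least 5 CPM. Much of any such likeness is the cell type difference, and depth and composition are shared within a library. Palmd, Insyn2a, Pcdhb4 and Etl4 overlap other genes in RefSeq, so their counts are uncertain. F3 was matched most closely by Dusp14 (r = 0.997) and Fosb (r = 0.996). Fosb, an AP-1 subunit, stood at 48.5 CPM in wild-type and 23.7 CPM in knockout endothelium and at 171 and 165 CPM in the podocyte groups. F8 was nearest to Phf11d (r = 0.997) and Fas (r = 0.996), and Thbd to Palmd (r = 0.995) and Stmn2 (r = 0.994). Vwf was nearest to Insyn2a (r = 0.988) and Pcdhb4 (r = 0.988), of which the first stood at 12.1 and 20.1 CPM in wild-type and knockout endothelium. Tfpi was nearest to Epn2 (r = 0.986) and Fignl1 (r = 0.979). Tbxa2r had the lowest values of best likeness, with Etl4 (r = 0.966) and Gm15753 (r = 0.962). Among the members themselves F8 and Thbd were most alike (r = 0.97), and F3 ran opposite to the other 5, with r from −0.94 for Vwf to −0.68 for Tfpi.

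**Figure D4:**
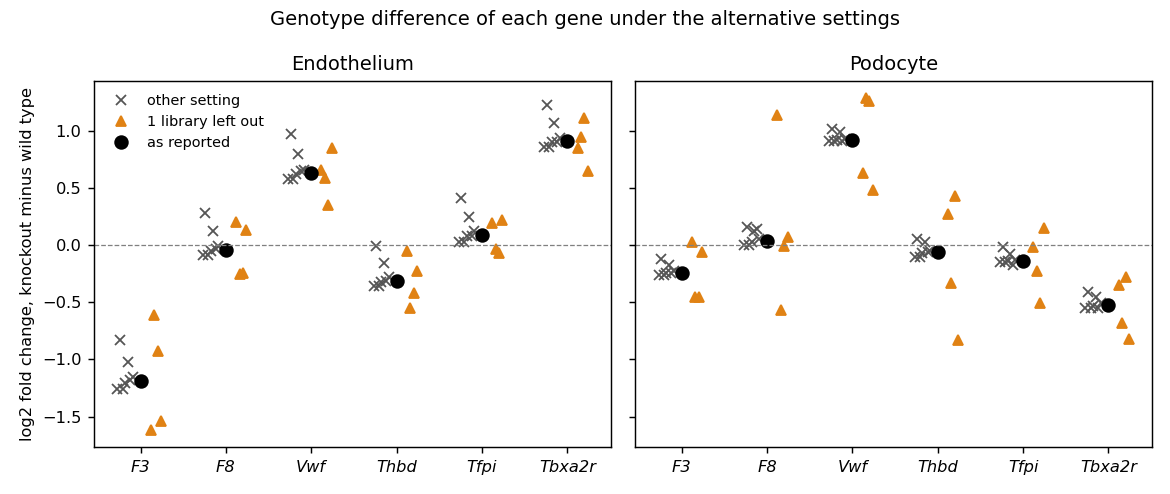
The 2 panels plot the log2 fold change of knockout minus wild type for each gene in endothelium and in podocytes, as reported (black), under other settings (crosses) and with 1 library left out (triangles). In endothelium the F3 values stay below 0, from −1.62 to −0.61, and the Tbxa2r and Vwf values stay above 0, while F8 and Tfpi lie on both sides of 0.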

How the data were processed

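The authors deposited 1 table of raw counts per Entrez gene, with 1 column per alignment file, per the file headers. The submitters' processing notes name mm10 and DESeq2 with no role. The aligner, counter and use of strand are not given in the sources used here. Of 22533 gene lines, 5207 (23.11%) hold a comma in the gene description and fewer than 8 counts and were not used. In 3 columns such lines leave empty or unreadable cells.

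Counts were fitted with edgeR 4.0.16 in R 4.3.3 (filterByExpr, 16477 genes kept, TMM scaling, 1 mean per group over all 8 libraries, quasi-likelihood F test, Benjamini-Hochberg adjustment over all genes, threshold 0.05). Standard errors are the log2 fold change over the square root of F, and log2 CPM used a prior count of 2. Levels per kilobase used the longest coding transcript in GENCODE M21. The alternatives changed the scaling (DESeq2 size factors or library size only), the test (Wald test of DESeq2 1.42.0), the filter (none, or 5 CPM as the lowest mean), the model (replicate block) and the libraries (only the 4 compared, or 1 left out). A crossed block was added after seeing the data. Genes and lists were chosen with earlier results of these data known. Named genes are the members, list genes past the threshold (at most 5 a list and contrast) and the 2 genes most like each member. Tested on simulated data for knockout against wild type in endothelium over 16477 genes, recovery by edgeR was 3.75% for the 80 genes given a 2-fold change, 66.25% for 80 at 4-fold and 95% for 40 at 8-fold. Of its 98 calls 4 were false, against 33 of 144 for DESeq2.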

Additional observations from a re-analysis of the deposited data

Results flagged for a closer look

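Tbxa2r was singled out because its genotype effect differed in direction between the cell types, with both knockout libraries above both wild-type libraries in endothelium and below them in podocytes. The difference between the effects was 1.43 log2 units. Its edgeR test had an unadjusted p of 0.00293 and an adjusted p of 1.0, so it did not pass. Groups of 2 libraries are too small for a test of single outlying libraries.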

How the results depend on the processing

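Of 354 values of the 6 genes under alternative settings, 319 kept their direction and side of the threshold, 10 kept the direction and lost the call, and 25 changed sign, all of the last among differences that had not passed. With 1 wild-type library left out, between 3 and 4 of 6 genes passed for endothelium against podocytes in wild type, against 5 in the full fit. The 3 came without replicate 2 of wild-type podocytes. In knockout, leaving out 1 library left 4 to 5. In fits without 1 library the lone library of its group is assumed to vary like the others.

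Scaling by library size only moved the median of all genes most for knockout against wild type in endothelium, from 0.01 to 0.33 log2 units. It gave F8 values of 0.28 in endothelium and 0.12 for the difference between the effects, and Thbd 0.05 in podocytes. A mean of at least 5 CPM gave 0.12, 0.00 and 0.03 for the same values. With 1 library left out, knockout against wild type in endothelium ranged from −0.25 to 0.20 for F8 and from −0.07 to 0.22 for Tfpi. In podocytes the ranges were −0.45 to 0.03 for F3, −0.57 to 1.14 for F8, −0.83 to 0.43 for Thbd and −0.51 to 0.15 for Tfpi. The difference between the effects ranged from −1.16 to 0.52 for F8, −0.75 to 0.50 for Thbd, −0.66 to 0.15 for Vwf and −0.07 to 0.59 for Tfpi. The cause was not tested.

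Genes called over the whole table for endothelium against podocytes ranged from 769 to 1085 with 1 library left out in wild type, against 1481, and from 960 to 1809 in knockout, against 1709. The counts over 1.5 times lower were 922 without replicate 3 of wild-type endothelium, 769 without replicate 2 of wild-type podocytes, 960 and 1115 without replicates 2 and 3 of knockout endothelium and 1079 without replicate 2 of knockout podocytes. Between genotypes DESeq2 called 10 genes in endothelium and 12 in podocytes against 1 in each, and 0 passed in either with scaling by library size only or a mean of at least 5 CPM. A fit of the 4 podocyte libraries alone also called 0, and leaving out 1 library called 0 in endothelium and 0 or 1 in podocytes.

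With the replicate block 5 of 6 genes passed in each cell type contrast and 0 between genotypes, as without it, and the block changed no call of a member. Whole-table counts with the block were 1831 and 2241. The labels do not say what the number stands for, and the deviations of same-numbered libraries correlated at 0.19 between the endothelial groups, 0.16 between the podocyte groups, 0.11 between the knockout groups and −0.13 between the wild-type groups. A crossed block in wild type, chosen after seeing the data, called 4 of the 6 genes and 1357 genes in all.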
